A study of Mus musculus with 52 samples.

Results

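The genes described here encode small nucleolar RNAs (snoRNAs). They were taken from the deposited tables as every gene symbol that starts with Snora or Snord, 1 row per symbol, which gave 108 genes of the 24286 symbols in the tables. Of these, 36 are box H/ACA genes (Snora) and 72 are box C/D genes (Snord). H3K4 monomethylation, dimethylation, and trimethylation (H3K4me1, H3K4me2, and H3K4me3) had been mapped by ChIP-seq in mouse embryonic fibroblasts (MEFs) that were immortalized by the 3T3 method and carry loxP sites in both MLL2 alleles. MLL2, also called KMT2D, is an H3K4 methyltransferase. The labels give the treatment of F/F cells as none. FC/FC cells came from the same F/F cells after hydroxy-tamoxifen (1 µM for 24 h) had removed exons 3–5 of MLL2, and were cultured for another 6 days. The drug and the genotype cannot be told apart in any comparison. Each mark was mapped in 3 libraries per genotype (18 libraries), named here by their library numbers, and 1 of them (NGS-6282, H3K4me2, FC/FC) carries the catalogue number of the H3K4me1 antibody in its label.

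snoRNAs guide the modification of ribosomal and other RNAs in the nucleolus. Box C/D snoRNAs direct methylation of ribose and box H/ACA snoRNAs direct the conversion of uridine to pseudouridine, each bound by its own set of core proteins. In mammals, most snoRNAs are not transcribed from promoters of their own but are cut out of introns of host genes, many of which encode ribosomal proteins or translation factors, so that the nearest transcription start site (TSS) is usually that of the host. H3K4me3 is known to mark active promoters, H3K4me2 promoters and their flanks, and H3K4me1 promoter flanks and enhancers.

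The 108 genes are short (22 to 221 bp, median 77 bp), and each deposited value covers the gene and 500 bp on each side (1022 to 1221 bp), so that it describes the chromatin around a snoRNA gene rather than the gene alone. Values are RPKM, that is, reads scaled to the length of this window and to all reads counted in the library. At the median window, 1 RPKM was 28.8 reads in the shallowest library and 53.8 reads in the deepest (26714377 to 49990775 reads in total). The windows of 22 of the genes overlap the window of another, which leaves 95 separate stretches. Of the 108 genes, 99 lie inside a transcript of at least 1 kb on their own strand, in 72 hosts. By the RefSeq exons of those transcripts, 94 of the 99 lie in an intron and 3 in an exon (Snord45c, Snora26, and Snord7), and 2 host transcripts were not found in the annotation used. Ribosomal protein genes host 31 of the snoRNA genes (22 hosts). Hosts whose symbol in the tables is Gas5 or starts with Snhg, called named host RNAs here, hold 11. The coordinates of 102 of the 108 match the RefSeq locus of the same symbol in GRCm38, the build of the tables (mm10). Those of Snord14a, Snord14c, Snord14d, Snord118, and Snora19 do not, and Snord116 was not matched. Values at these 6 symbols describe the listed coordinates only.

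Most of the listed box C/D genes carry the letters of box D near their end, and most box H/ACA genes carry ACA there. The full letters of box C were found in a smaller part, and box H was not searched for. With both ends read on the strand of the gene, CTGA (box D) was found in the last 15 bases of 67 of 72 box C/D genes (93.1%), of 2 of 36 box H/ACA genes (5.56%), and of 82 of the 1135 other transcripts under 250 bp in the tables (7.22%), 1096 of which are Mir genes. ACA was found in the last 10 bases of 34 of 36 box H/ACA genes (94.4%), of 3 of 72 box C/D genes (4.17%), and of 187 of the 1135 others (16.5%). The full box C letters TGATGA stood in the first 20 bases of 19 of 72 box C/D genes (26.4%) and of 11 of the 1135 others (0.969%). Below, capitals mark TGATGA and CTGA in box C/D genes and ACA in box H/ACA genes, where they were found. The genes of Rpl13a and Snhg12, the hosts with 4 snoRNA genes each, are shown in the order in which they follow the host TSS, because the marks change along them.
Snord32a (chr7:45127383-45127463, minus strand): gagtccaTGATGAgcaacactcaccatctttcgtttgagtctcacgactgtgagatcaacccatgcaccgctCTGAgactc
Snord33 (chr7:45126864-45126945, minus strand): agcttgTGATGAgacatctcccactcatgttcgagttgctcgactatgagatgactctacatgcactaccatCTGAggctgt
Snord34 (chr7:45126603-45126668, minus strand): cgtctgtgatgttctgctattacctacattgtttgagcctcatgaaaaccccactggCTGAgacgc
Snord35a (chr7:45126347-45126435, minus strand): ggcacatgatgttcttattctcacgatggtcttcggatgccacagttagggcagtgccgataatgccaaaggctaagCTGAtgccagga
Snora16a (chr4:132309465-132309600, plus strand): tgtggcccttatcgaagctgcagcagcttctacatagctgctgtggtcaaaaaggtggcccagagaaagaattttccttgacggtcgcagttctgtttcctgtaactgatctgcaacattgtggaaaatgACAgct
Snora44 (chr4:132309953-132310069, plus strand): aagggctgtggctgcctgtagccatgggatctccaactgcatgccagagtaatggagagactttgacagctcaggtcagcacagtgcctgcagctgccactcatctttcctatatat
Snora61 (chr4:132310307-132310368, plus strand): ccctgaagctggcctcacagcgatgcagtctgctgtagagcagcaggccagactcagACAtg
Snord99 (chr4:132310703-132310758, plus strand): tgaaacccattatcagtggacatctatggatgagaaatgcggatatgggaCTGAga

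The next sequences belong to genes at the ends of the range of a mark or to genes whose marks differ from those of their neighbours in distance. Snord49a had the highest H3K4me3, Snord100 the highest H3K4me2, and Snord37 the highest H3K4me1. Snord49b and Snord65 share the host of Snord49a. Snord45c and Snord45b share the host Rabggtb, which encodes a subunit of Rab geranylgeranyl transferase. Snord104 and Snora24 lie far from any TSS that was used, and the row of Snord14c holds only 22 bases.
Snord49b (chr11:62603086-62603148, plus strand): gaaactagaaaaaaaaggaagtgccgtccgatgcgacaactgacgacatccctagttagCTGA
Snord49a (chr11:62603460-62603521, plus strand): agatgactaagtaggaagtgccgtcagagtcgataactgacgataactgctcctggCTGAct
Snord65 (chr11:62604530-62604586, plus strand): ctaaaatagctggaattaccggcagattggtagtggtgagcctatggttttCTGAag
Snord100 (chr10:23785754-23785821, minus strand): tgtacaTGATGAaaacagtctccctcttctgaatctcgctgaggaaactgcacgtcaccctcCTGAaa
Snord37 (chr10:81178961-81179013, plus strand): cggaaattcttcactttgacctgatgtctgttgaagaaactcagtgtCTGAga
Snord45c (chr3:153912129-153912189, minus strand): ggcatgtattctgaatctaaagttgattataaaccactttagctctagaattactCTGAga
Snord45b (chr3:153910567-153910611, minus strand): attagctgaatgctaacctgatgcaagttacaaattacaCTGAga
Snord104 (chr11:106500991-106501063, plus strand): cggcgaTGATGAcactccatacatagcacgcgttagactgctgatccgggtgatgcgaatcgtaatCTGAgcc
Snora24 (chr3:123507937-123508066, minus strand): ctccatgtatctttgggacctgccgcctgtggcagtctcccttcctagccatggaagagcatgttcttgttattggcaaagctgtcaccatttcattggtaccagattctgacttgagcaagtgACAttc
Snord14c (chr10:46244749-46244770, plus strand): tgctgtgttggctagttgcttc

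The first question was how the 3 marks lie over snoRNA genes in F/F cells, by distance from the nearest edge of the gene to the nearest TSS of a transcript of at least 1 kb. This distance had a median of 2433 bp, and 78 of the 108 genes lay within 5 kb of a TSS. In bins of distance, 8 genes had a TSS within 500 bp, 12 lay over 500 to 1000 bp away, 23 over 1 to 2 kb, 35 over 2 to 5 kb, 19 over 5 to 20 kb, and 11 over 20 kb.

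H3K4me3 was highest at snoRNA genes within 1 kb of a TSS. The median RPKM over the genes of a bin was 56.5 ± 2.74 (SD, n = 3 libraries) within 500 bp and 58.9 ± 2.61 at 500 to 1000 bp. It was 18.6 ± 5.44 at 1 to 2 kb, 1.33 ± 0.456 at 2 to 5 kb, and 0.317 ± 0.0315 at 5 to 20 kb. The lowest library median within 1 kb (54.1 RPKM) was above the highest at 1 to 2 kb (24.6 RPKM), which was in turn far above the highest at 2 to 5 kb (1.85 RPKM).

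H3K4me2 reached as far as 2 kb with little change. Its medians were 17.9 ± 1.48 RPKM within 500 bp, 21.1 ± 1.06 at 500 to 1000 bp, and 22.1 ± 1.23 at 1 to 2 kb. The values of the last 2 bins lay within the spread of the libraries. At 2 to 5 kb the median was 4.01 ± 0.880, and at 5 to 20 kb it was 0.208 ± 0.0201.

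H3K4me1 had the opposite order near the TSS. The median was 0.922 ± 0.152 RPKM within 500 bp, 1.73 ± 0.0993 at 500 to 1000 bp, 3.89 ± 0.0276 at 1 to 2 kb, and 3.12 ± 0.256 at 2 to 5 kb. Beyond that it was 0.762 ± 0.133 at 5 to 20 kb and 0.515 ± 0.115 over 20 kb. The library medians of the first 3 bins did not overlap, nor did those of the bins at 2 to 5 kb and 5 to 20 kb.

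**Figure D1:**
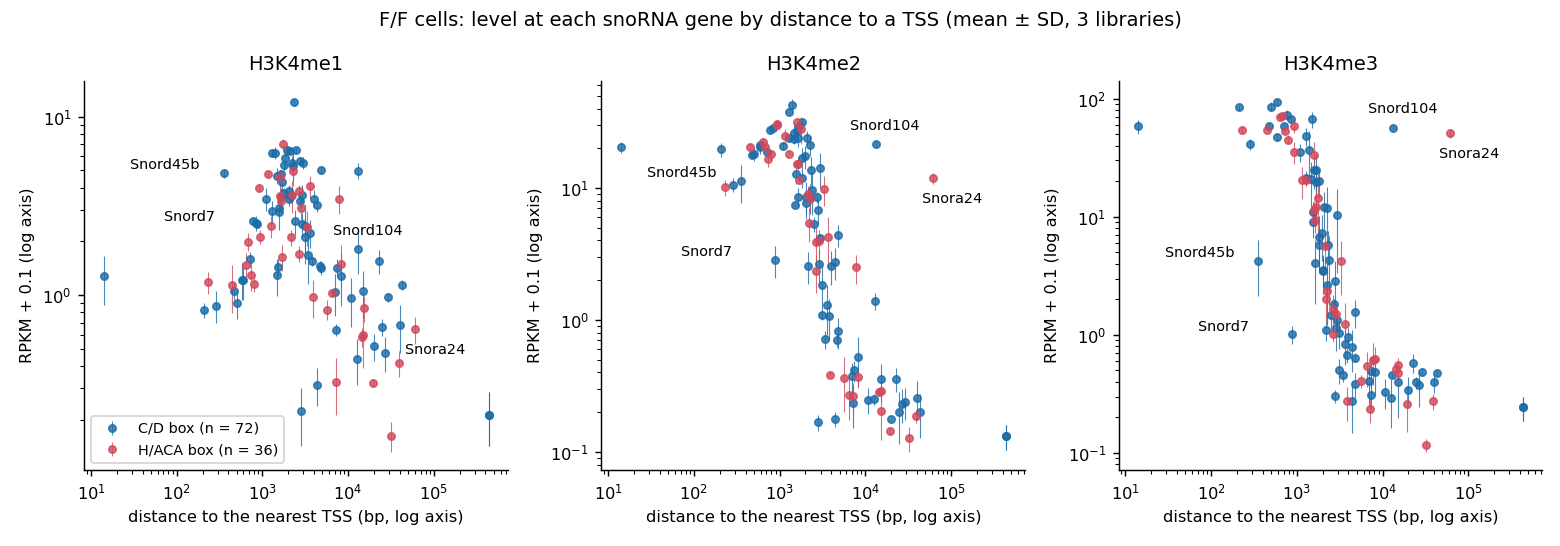
Level of each mark at the 108 snoRNA genes in F/F cells (RPKM + 0.1, log axis; mean ± SD of 3 libraries) against the distance to the nearest TSS of a transcript of at least 1 kb (bp, log axis), with box C/D genes in blue and box H/ACA genes in red. H3K4me1 peaks between 1 and 5 kb, H3K4me2 and H3K4me3 fall beyond 2 kb and 1 kb, and Snord104 and Snora24 stand at 56.9 and 51.0 RPKM of H3K4me3 far to the right of the other high genes.

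Across the 108 genes, Spearman's rho between distance and level in the F/F libraries was −0.85 to −0.845 for H3K4me3, −0.826 to −0.795 for H3K4me2, and −0.454 to −0.324 for H3K4me1. These describe 108 genes that share libraries and, in part, windows, and they are not tests. In FC/FC cells rho was −0.865 to −0.843, −0.840 to −0.806, and −0.451 to −0.359 in the same order. The 1135 other short transcripts had lower H3K4me3 close to a TSS. Their F/F median was 21.5 ± 3.95 RPKM within 500 bp, 4.25 ± 0.462 at 500 to 1000 bp, and 2.02 ± 0.281 at 1 to 2 kb, each below the lowest library median of the snoRNA genes in that bin. Their H3K4me1 was 1.23 ± 0.0488 within 500 bp, above that of the snoRNA genes. It was below that of the snoRNA genes at 1 to 2 kb (1.67 ± 0.151) and at 2 to 5 kb (0.849 ± 0.0750). Over 20 kb the H3K4me1 medians of both sets were within the spread of the libraries (0.431 ± 0.00580 for the others).

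**Figure D2:**
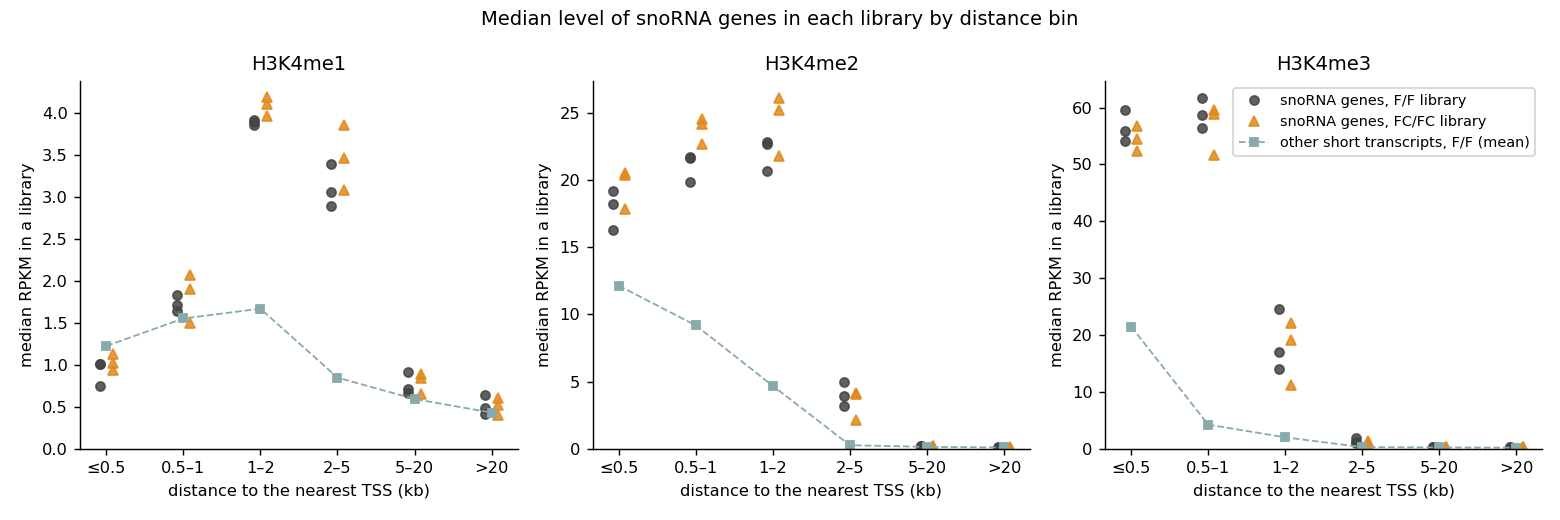
Median RPKM over the snoRNA genes of each distance bin (kb) in each library, with F/F libraries as circles, FC/FC libraries as triangles, and the F/F mean of the other transcripts under 250 bp as squares. H3K4me3 is above 50 RPKM within 1 kb in every library, and H3K4me1 is highest at 1 to 2 kb in every library.

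Named genes show the same order. Snord49a, in intron 2 of 2410006H16Rik and 583 bp from its TSS, had 85.3, 98.8, and 94.9 RPKM of H3K4me3 in the 3 F/F libraries (3341, 3118, and 4887 reads). It was followed by Snord43 in Rpl3 (85.7 ± 7.40), Snord49b (84.3 ± 4.09), Snord15a in Rps3 (73.3 ± 7.23), and Snora21 in Rpl23 (71.8 ± 4.59), all within 1 kb. The F/F libraries of each neighbouring pair in this order overlapped. The mean H3K4me1 of these 5 genes was at most 2.49 RPKM.

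For H3K4me2 the highest genes were Snord100 in intron 4 of Rps12 (37.0, 47.5, and 41.8 RPKM), Snord32a in Rpl13a (37.8, 36.7, and 38.3), Snora65 in Rpl12 (31.6 ± 0.275), Snord33 in Rpl13a (31.3 ± 1.58), and Snora3 in Rpl27a (30.2 ± 1.84). Of these, 4 lie 1282 to 1800 bp from a TSS, and Snora3 lies 937 bp away. All 4 hosts encode proteins of the ribosome.

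For H3K4me1 the highest gene was Snord37, in intron 4 of Eef2, the gene of translation elongation factor 2, at 2330 bp from its TSS. It had 11.6, 12.6, and 11.7 RPKM, and the next gene, Snora33 in Rps12, had 6.96 ± 0.470. Snord35a, Snord1b, and Snord34 followed at 6.39 ± 0.434, 6.38 ± 0.225, and 6.28 ± 0.230, with differences smaller than their SDs. Snord37 also had 13.6 ± 3.30 RPKM of H3K4me2 and 5.64 ± 1.84 of H3K4me3.

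The lowest values belonged to Snora35, in an intron of the serotonin receptor gene Htr2c, and to Snord14c and Snord14d. Snora35 had 0 to 0.0301 RPKM of H3K4me3 and 0.0335 to 0.0966 of H3K4me1 in the F/F libraries. The rows of Snord14c and Snord14d overlap almost fully on chromosome 10 and share their reads, so their 0.144 ± 0.0556 and 0.144 ± 0.0555 RPKM of H3K4me3 are 1 measurement. Snora15 in Cct6a had 0.136 ± 0.0574. Snord116 and Snord64 lie in the imprinted Snrpn region, and their RNAs are best known from neurons. Snord116 had 0.205 ± 0.0387 RPKM of H3K4me3 and 0.122 ± 0.0800 of H3K4me1 at 2799 bp from the TSS of Ipw, and Snord64 had 0.177 ± 0.128 and 0.214 ± 0.0743. Snord116 has 10 rows in the tables, of which 1 was used. At such levels a value rests on a few reads, and differences between these genes were not tested.

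The same change with distance was seen inside single hosts. Rpl13a, which encodes a protein of the large ribosomal subunit, holds Snord32a, Snord33, Snord34, and Snord35a in introns 2, 4, 5, and 6, at 1282, 1800, 2077, and 2310 bp from its TSS. H3K4me3 fell along them from 47.9 ± 8.49 to 19.8 ± 5.63, 11.9 ± 4.21, and 7.14 ± 3.02 RPKM. H3K4me2 went from 37.6 ± 0.841 to 31.3 ± 1.58, 23.9 ± 2.81, and 17.3 ± 3.44. H3K4me1 was 2.84 ± 0.402 at the first gene and 5.26 ± 0.375, 6.28 ± 0.230, and 6.39 ± 0.434 at the others. Each F/F library by itself had the order of H3K4me3 and H3K4me2, while H3K4me1 at Snord34 and Snord35a did not differ beyond its spread. The windows of neighbouring genes in this host overlap.

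Snhg12, a host RNA that codes for no known protein, holds Snora16a, Snora44, Snora61, and Snord99 in its introns 1 to 4, at 787, 1275, 1629, and 2025 bp. H3K4me3 was 45.0 ± 3.86, 20.3 ± 2.23, 9.34 ± 2.10, and 3.43 ± 0.985 RPKM. H3K4me2 was alike at the first 2 genes (18.1 ± 0.925 and 18.1 ± 0.435) and lower at Snora61 (15.1 ± 1.76) and Snord99 (7.59 ± 1.38). H3K4me1 was 1.05 ± 0.109, 2.32 ± 0.346, 3.26 ± 0.389, and 3.35 ± 0.301.

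In the other hosts with 3 members, H3K4me3 was also lower at the last gene than at the first. In 2410006H16Rik, H3K4me3 was 84.3 ± 4.09 at Snord49b (209 bp), 93.0 ± 6.93 at Snord49a (583 bp), and 19.6 ± 8.16 at Snord65 (1653 bp), and H3K4me1 was 0.723 ± 0.0820, 1.12 ± 0.285, and 4.64 ± 0.0926. H3K4me2 did not fall along this host, with 19.5 ± 2.35, 20.5 ± 2.60, and 24.0 ± 3.74. In Rpl23a, H3K4me3 was 59.2 ± 4.71 at Snord42b (471 bp), 6.63 ± 3.41 at Snord4a (1828 bp), and 2.53 ± 1.41 at Snord42a (2238 bp). In 1810032O08Rik, it was 67.1 ± 5.22 at Snord1c (845 bp), 1.38 ± 0.428 at Snord1b (2487 bp), and 1.24 ± 0.366 at Snord1a (2937 bp), the last 2 within their spread.

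**Figure D3:**
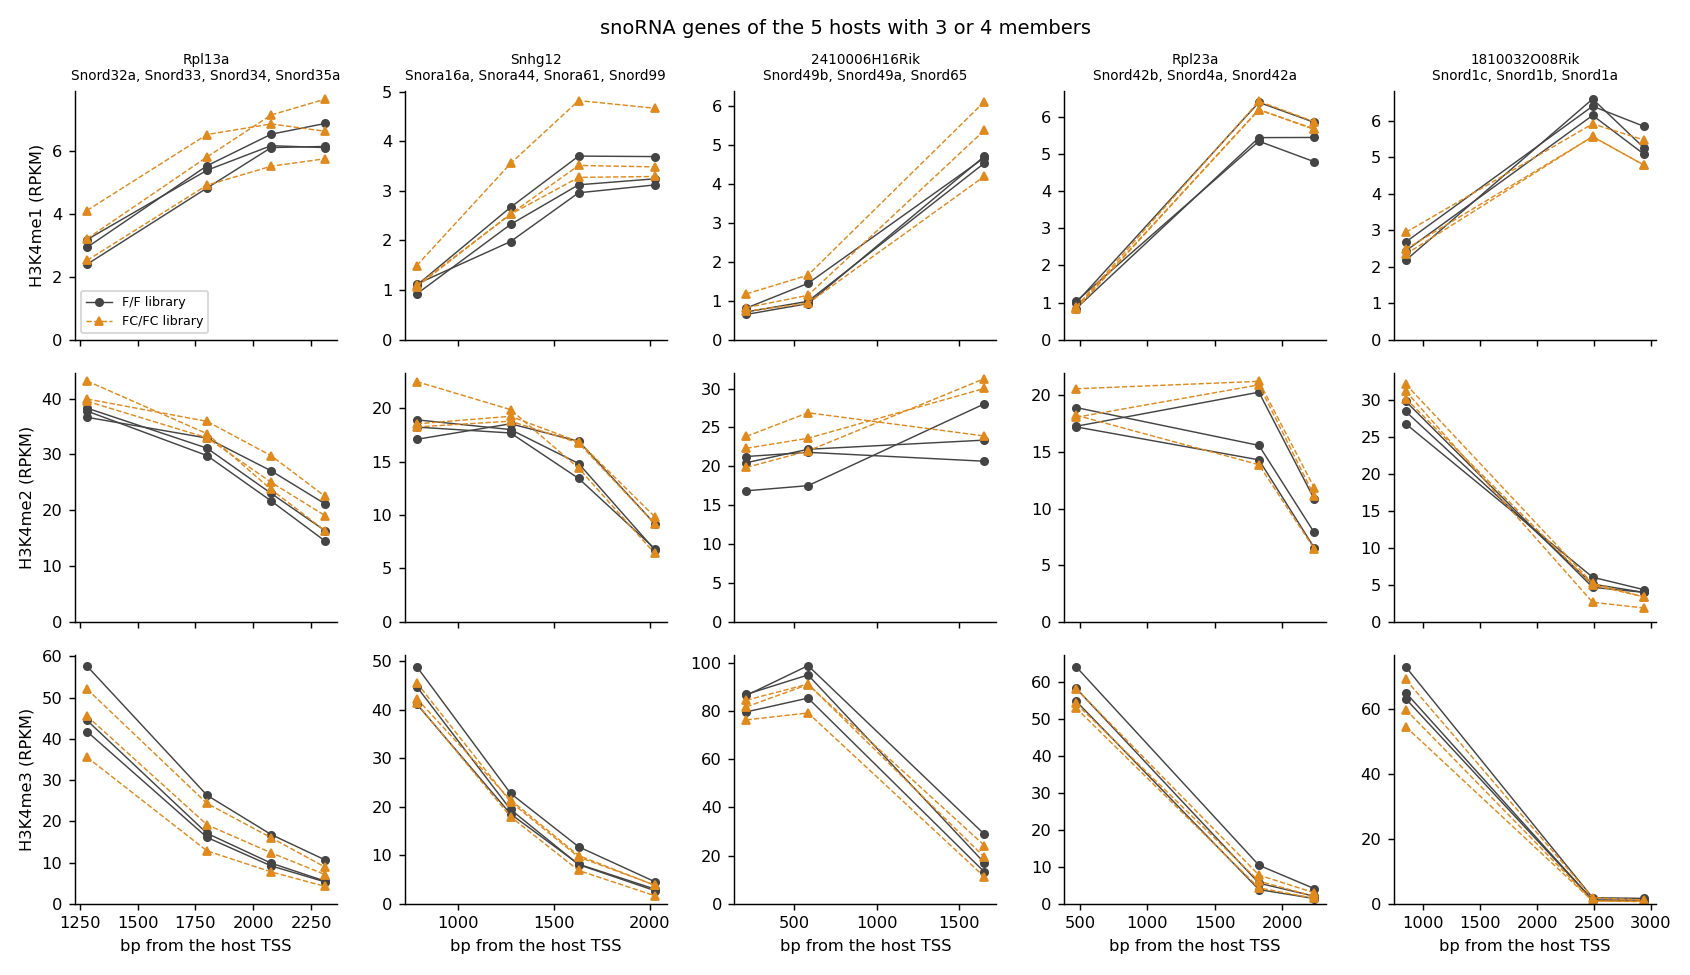
RPKM of each mark in each library at the snoRNA genes of the 5 hosts with 3 or 4 of them, against the distance from the host TSS (bp), with F/F libraries as filled circles and FC/FC libraries as triangles. In all 5 hosts H3K4me3 is lower and H3K4me1 higher at the last gene than at the first, in every library.

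Of the 20 hosts with at least 2 snoRNA genes, 14 have the first within 2 kb of the TSS. In 14 of these 14 hosts, H3K4me3 was higher at the nearest than at the farthest member in all 3 F/F libraries, and likewise in all 3 FC/FC libraries. H3K4me1 was lower at the nearest member in all 3 F/F libraries in 12 of the 14. The other 2 were Gnb2l1 (Snord96a and Snord95) and Nop56 (Snord110 and Snord57), where it was higher. In the 6 hosts whose first member lies farther from the TSS, H3K4me1 was also higher at the nearest member in all 3 F/F libraries. For the 14 hosts, H3K4me2 was higher at the nearest member in all 3 F/F libraries in 12. These counts are descriptions, since 3 libraries cannot give an exact permutation p under 0.1 even against 3 others.

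Some genes, named after their values were seen, went against their distance. Among the 30 genes over 5 kb from a TSS, 2 had more than 1 RPKM of H3K4me3, and the next highest of the 30 was Snora75 in Ncl at 0.523. Snord104, 13195 bp from the TSS of Ern1, had 56.8, 55.4, and 58.4 RPKM of H3K4me3 in F/F cells. It also had 21.3 ± 1.3 of H3K4me2 and 1.71 ± 0.498 of H3K4me1, values like those of genes within 1 kb. RefSeq lists around it a long noncoding RNA gene of 297 bp, Gm36220 (chr11:106500915-106501211, plus strand), that starts 76 bp before Snord104. Snora24, 61024 bp from the TSS of Prss12, had 51.0 ± 4.50 RPKM of H3K4me3 and 0.544 ± 0.111 of H3K4me1. It lies 270 bp after the start of Snhg8, a host RNA of 785 bp (chr3:123507552-123508336, minus strand). Both RNA genes are shorter than the 1 kb of the rule. With every TSS of a transcript of at least 250 bp, 1 of the 108 genes changed its bin. Since both RNA genes are longer than 250 bp, at least 1 of them was not among the transcripts used for this.

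In the other direction, 2 genes within 1 kb of a TSS had little H3K4me3, with 35.5 RPKM or more at the other 18. Snord45b lies 356 bp from a TSS of Rabggtb and had 2.80 to 6.57 RPKM of H3K4me3, with 4.72 ± 0.273 of H3K4me1. Snord45c lies 14 bp from another TSS of the same gene and had 58.3 ± 8.20 and 1.17 ± 0.386. RefSeq places Snord45b 2355 bp after the first start of Rabggtb. Snord7, in the only exon of AI450353 and 874 bp from its start, had 0.911 ± 0.169 RPKM of H3K4me3 and 2.38 ± 0.0232 of H3K4me1. RefSeq also lists around Snord7 a longer noncoding RNA gene of 2939 bp on the same strand, AA465934, that starts 2605 bp before it. Snord2, in intron 3 of the translation initiation factor gene Eif4a2, had the highest H3K4me3 of the 23 genes at 1 to 2 kb, with 66.9 ± 10.6 RPKM at 1485 bp.

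CpG content differed by distance too. The median number of CpG in the window was 50 within 500 bp of a TSS, 33.5 at 500 to 1000 bp, 14 at 1 to 2 kb, 11 at 2 to 5 kb, 12 at 5 to 20 kb, and 9 over 20 kb. Snord104 has 65 CpG in its window and Snora24 has 58, against 4 in that of Snord7. Spearman's rho between the ratio of observed to expected CpG and level in F/F libraries was 0.624 to 0.660 for H3K4me3, 0.458 to 0.531 for H3K4me2, and −0.0256 to 0.0901 for H3K4me1, again as a description over 108 genes. The part of CpG content in the levels was not tested. The 300 bases centred on Snord104 and on Snord7 show the contrast, with each CpG in capitals (24 against 2).
Snord104 (chr11:106500878-106501177, plus strand): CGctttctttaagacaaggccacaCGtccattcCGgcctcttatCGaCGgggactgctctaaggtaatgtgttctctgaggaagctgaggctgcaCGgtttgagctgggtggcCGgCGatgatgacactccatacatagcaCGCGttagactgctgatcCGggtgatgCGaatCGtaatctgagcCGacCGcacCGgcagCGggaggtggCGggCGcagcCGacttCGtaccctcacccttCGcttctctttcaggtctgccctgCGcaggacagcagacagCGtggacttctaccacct
Snord7 (chr11:83294202-83294501, plus strand): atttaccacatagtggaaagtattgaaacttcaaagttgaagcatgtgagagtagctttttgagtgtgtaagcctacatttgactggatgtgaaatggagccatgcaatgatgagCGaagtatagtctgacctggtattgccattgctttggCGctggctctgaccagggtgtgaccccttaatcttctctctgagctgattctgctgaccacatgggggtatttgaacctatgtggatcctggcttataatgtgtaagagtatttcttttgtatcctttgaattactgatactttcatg

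By box class, H3K4me3 and H3K4me2 did not differ beyond the spread of the libraries. Box C/D and box H/ACA genes lie at like distances (medians of 2433 and 2463 bp), and their F/F medians of H3K4me3 were 2.69 ± 1.33 and 3.23 ± 1.55 RPKM. Their H3K4me2 was 7.30 ± 1.28 and 8.19 ± 0.858, and only their H3K4me1 differed by more than the SDs, at 2.31 ± 0.156 and 1.60 ± 0.156. These SDs are between libraries over the same genes and do not measure the spread between genes, so they cannot tell whether the classes differ. A difference between the classes was not tested. The 31 genes in ribosomal protein hosts lay nearer to a TSS (median 1587 bp) and had 18.7 ± 5.30 RPKM of H3K4me3 and 18.1 ± 0.831 of H3K4me2. The 11 in named host RNAs (2025 bp) had 8.12 ± 3.57 and 13.5 ± 3.14, and the 57 in other hosts (3614 bp) had 0.538 ± 0.0695 and 0.942 ± 0.131. These kinds go by symbol only. Noncoding hosts with other symbols, such as 2410006H16Rik, 1810032O08Rik, and Dancr, are counted among the other hosts. Snora24 was counted as having no host, since Snhg8 is under 1 kb. Host kind and distance go together in these genes, and their parts were not separated.

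Among long-known snoRNAs, Snord87 in Snhg6 had 24.7 ± 7.59 RPKM of H3K4me3 and 26.8 ± 1.96 of H3K4me2 at 1575 bp. Snord47 in Gas5 had 10.2 ± 6.92 and 14.1 ± 4.25 at 2926 bp, and Snord22 in Snhg1 had 4.22 ± 2.58 and 9.62 ± 3.5 at 2379 bp. Snora74a in Snhg4 had 1.13 ± 0.629 of H3K4me3 and 3.98 ± 0.569 of H3K4me1 at 3620 bp. The listed row of Snord118, the U8 snoRNA, and that of Snord14a are not at the RefSeq loci of these genes. They had 0.284 ± 0.0907 and 1.01 ± 0.213 RPKM of H3K4me3.

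Peaks had been called by the authors in each library. In F/F cells the windows of 62, 64, and 68 of the 108 genes overlapped a peak of H3K4me1, those of 72, 75, and 74 a peak of H3K4me2, and those of 63, 69, and 65 a peak of H3K4me3. With a peak required in all 3 F/F libraries, 44 genes had all 3 marks, 19 had H3K4me2 and H3K4me3 without H3K4me1, 8 had H3K4me1 and H3K4me2 without H3K4me3, 1 had H3K4me1 alone (Snord89), 1 had H3K4me2 alone (Snord82, in an intron of the nucleolin gene), and 35 had none. All 43 genes within 2 kb of a TSS had peaks of H3K4me2 and H3K4me3 in the 3 libraries. Of the 8 with H3K4me1 and H3K4me2 but no H3K4me3, 7 lay at 2 to 5 kb, among them Snord1a, Snord1b, Snord15b in Rps3, and Snora74a. Of the 30 genes over 5 kb away, 26 had no mark in all 3 libraries, and Snord104 and Snora24 had H3K4me2 and H3K4me3.

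In FC/FC cells, H3K4me1 peaks overlapped 71, 68, and 75 windows, H3K4me2 peaks 72, 77, and 76, and H3K4me3 peaks 61, 68, and 64. The ranges of the genotypes overlapped or met for each mark. An H3K4me1 peak in all 3 libraries was found at 53 genes (F/F) and 65 genes (FC/FC), and every FC/FC library of this mark was deeper (31253262 to 38871331 against 26714377 to 30528079 reads). The part of depth in this was not tested. The F/F libraries held 120661, 81444, and 101056 peaks of H3K4me1 in all, and the FC/FC libraries 101157, 90629, and 89026. With these lists cut by score to equal length, peaks overlapped 50, 64, and 66 windows (F/F) and 69, 66, and 72 (FC/FC). Peaks at all other transcripts were not counted, so whether the difference is particular to snoRNA genes was not tested. For H3K4me2 a peak in all 3 libraries was found at 72 genes (F/F) and 72 (FC/FC), and for H3K4me3 at 63 and 61. Snord7 had an H3K4me3 peak in each of the 3 F/F libraries and in no library of FC/FC cells, at 0.911 ± 0.169 and 0.748 ± 0.154 RPKM. No other gene went from 3 libraries to 0, or from 0 to 3, in any mark.

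**Figure D4:**
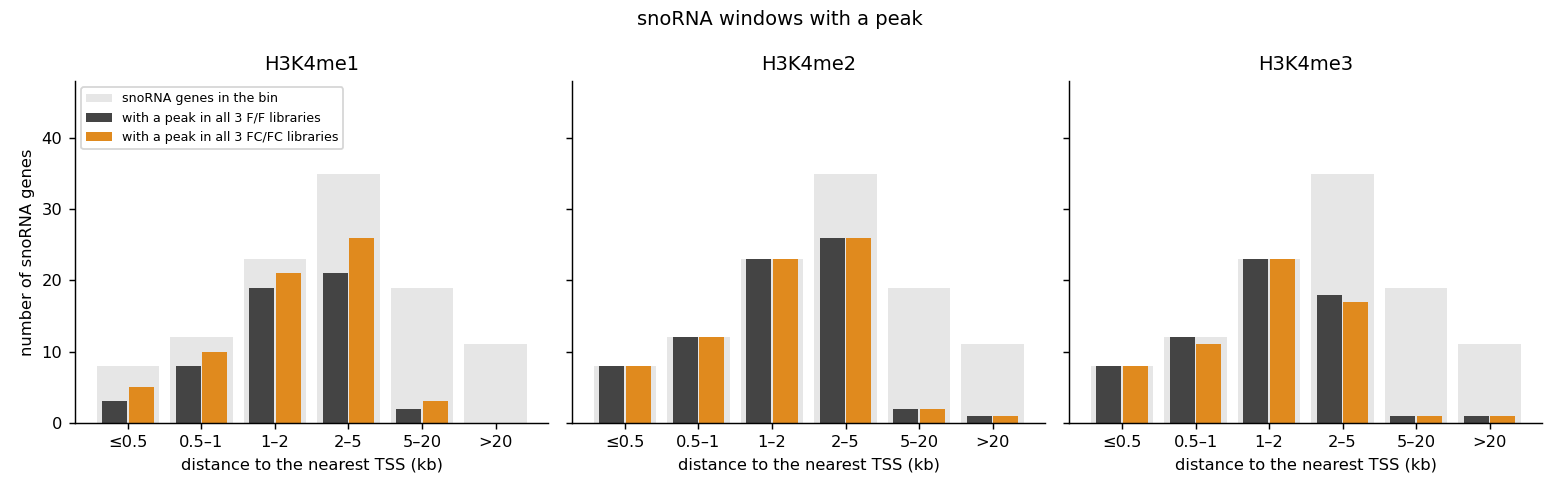
Number of snoRNA genes whose window overlaps a peak of each mark in all 3 F/F libraries (dark bars) and in all 3 FC/FC libraries (orange bars), by distance to the nearest TSS (kb), over the number of genes in the bin (grey). Every gene within 2 kb has H3K4me2 in both genotypes, and beyond 5 kb at most 3 genes of a bin have a given mark in all 3 libraries.

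The second question was whether loss of MLL2 exons 3–5 changed the marks at these genes. In such bulk data, fewer cells with a mark and less of the mark per cell cannot be told apart. The p-values measure the spread between libraries that the study's methods describe as independent experiments. A gene was tested for a mark if 3 or more of the 6 libraries had over 1 RPKM. Of the 108 snoRNA genes, 81 were tested for H3K4me1, 76 were tested for H3K4me2, and H3K4me3 was tested at 64. The others did not pass this filter.

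Without a block, no snoRNA gene passed an adjusted p of 0.05 in limma for any mark, higher or lower. Of all genes tested, 0% were called for H3K4me1 or H3K4me3, and 2.09% had a called difference in H3K4me2 (0.552% higher and 1.54% lower). By limma-voom on reads the number of snoRNA genes called was also 0 in each mark, where limma-voom called 1.2% (H3K4me1) and 0.842% (H3K4me2) of all genes higher, 6.78% and 2.7% lower, and 0% in H3K4me3. At an unadjusted p under 0.05 in limma, 11 snoRNA genes were higher and 2 lower in FC/FC cells in H3K4me1 (9.34% and 14.3% of all genes). In H3K4me2, 14 were higher and 2 lower (20.7% and 7.62% of all genes), and H3K4me3 had 0 (1.66% and 1.94% of all genes).

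The H3K4me1 call depended on a block. The labels give no replicate numbers, but the library numbers run in 3 sets of 8 in which a mark and genotype have the same place. For H3K4me1, F/F and FC/FC libraries of a set deviated together (correlation of deviations over 9047 genes of 0.517, 0.271, and 0.401). With the set as a block, an alternative added after seeing the data, 8 of the 81 snoRNA genes were higher in FC/FC cells and 0 lower, against 5.68% and 9.52% of all genes. They were Snora81 in Eif4a2 (0.43 ± 0.047, SE, on the log2 scale), Snord22 (0.45 ± 0.057), Snord100, Snord95, and Snord72, each with an adjusted p of 0.0359 in blocked limma, and Snord90, Snora28, and Snora33, at 0.0383 to 0.0451. At Snora81 the F/F libraries had 1.70, 2.60, and 2.65 RPKM and the FC/FC libraries of the same sets 2.23, 3.41, and 3.87, so that the groups overlap but each set has the higher value in FC/FC cells. Snora81 and Snora28 are named here after their values were seen. The windows of Snord100 and Snora33, both in Rps12, overlap, so these calls are not separate measurements. For H3K4me2 and H3K4me3 the third set did not deviate together (−0.469 and −0.211), and 0 snoRNA genes were called with the block (0.223% and 0.172% of all genes were higher, 1.39% and 0.183% lower).

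Differences were small for H3K4me1. The log2 fold change (FC/FC over F/F, of RPKM + 0.1) was positive at 66 of 81 snoRNA genes, with a median of 0.12. Over all 9047 genes tested, 49% were positive and the median was −0.0028. The contrast was smaller with no filter, where 83 of 108 snoRNA genes (median 0.13) and 64.6% of all 24286 genes (median 0.056) were positive. With the filter, the log2 fold change was positive in 20 of 23 snoRNA genes at 1 to 2 kb (median 0.12) and in 25 of 32 at 2 to 5 kb (median 0.11). The other short transcripts had medians of 0.079 at 1 to 2 kb and −0.12 at 2 to 5 kb. The FC/FC libraries all lay above the F/F libraries at 10 of the 81 snoRNA genes (11.7% of all genes) and all below at 1 (18.2% of all genes).

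Snord72, in an intron of the ribosomal protein gene Rpl37, had 3.39, 3.67, and 3.86 RPKM of H3K4me1 (F/F) and 4.11, 5.0, and 4.61 in FC/FC cells. The groups did not overlap. The log2 fold change was 0.32 ± 0.082 (SE), with an adjusted p of 0.105 in limma. Snord95 in Gnb2l1, the gene of the ribosomal scaffold protein RACK1, had 2.91, 3.51, and 3.31 against 3.69, 4.01, and 4.17 (0.28 ± 0.080, adjusted p = 0.117 in limma). Snora62 in Rpsa (0.38 ± 0.11), Snord100 (0.26 ± 0.077), and Snord90 in Rc3h2 (0.39 ± 0.12) had adjusted p of 0.125, 0.125, and 0.126 in limma. In the other direction, Snord1b had 6.40, 6.59, and 6.14 RPKM in F/F libraries and 5.91, 5.56, and 5.57 in FC/FC cells (−0.16 ± 0.057, adjusted p = 0.150 in limma), and Snord14a had −0.23 ± 0.095. Snora68, Snord1a, and Snora70 followed among the genes with negative values (adjusted p of 0.382 to 0.476 in limma).

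For H3K4me2 the log2 fold change was positive at 65 of 76 snoRNA genes (median 0.13), and 74.8% of all 10329 genes tested were positive (median 0.075). Centring the libraries on their medians gave 0.074 for the snoRNA genes and 0.018 for all genes, and quantile normalization gave 0.042 and 0.020, with 49 of 76 positive. Within 1 kb, 20 of 20 were positive. Snord2 had 23.4, 22.8, and 24.3 RPKM in F/F libraries and 27.4, 27.6, and 30.5 in FC/FC cells, with no overlap (0.28 ± 0.056, adjusted p = 0.0652 in limma). Snord58b in Rpl17 (0.20 ± 0.054), Snord45c (0.25 ± 0.076), Snora70 in Rpl10 (0.21 ± 0.065), and Snora17 in Snhg7 (0.18 ± 0.055) had adjusted p between 0.0924 and 0.115 in limma. FC/FC libraries all lay above at 16 of the 76 (26.8% of all genes) and all below at 1 (8.47% of all genes).

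The exception below was Snord1a, in the last intron of 1810032O08Rik. Its H3K4me2 was 3.96, 4.33, and 3.97 RPKM in F/F libraries and 1.86, 3.36, and 3.35 in FC/FC cells (−0.55 ± 0.21, adjusted p = 0.156 in limma). The lowest of these is NGS-6282. Snord1b, in the intron before, had −0.35 ± 0.25, while Snord1c, near the TSS of the same host, had 28.3 ± 1.52 and 31.1 ± 0.971 RPKM. Snord89 had 1.3 ± 0.209 and 0.894 ± 0.281 (−0.52 ± 0.21, adjusted p = 0.167 in limma). Snora2b and Snord83b, also among the smallest p below 0, had −0.40 ± 0.38 and −0.12 ± 0.18.

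The library NGS-6282 decided the H3K4me2 calls. Ranked over the 108 genes, it resembled the other libraries of H3K4me2 (Spearman's rho 0.963 to 0.987) more than those of H3K4me1 (0.459 to 0.609). At the 20 genes within 1 kb of a TSS it was the highest of the 3 FC/FC libraries for 11, and over 1 to 5 kb its median (6.57 RPKM) was the lowest, against 11.3 and 10.5. Without it, 11 snoRNA genes were higher and 1 lower in limma, while 18.6% of all genes were called higher and 7.79% lower, and the median log2 fold change of the snoRNA genes was 0.24. The 12 include Snord61 in Rbmx (0.39 ± 0.044, adjusted p = 0.00699 in limma), Snora81 in Eif4a2 (0.69 ± 0.18, adjusted p = 0.0315), Snord2, Snord58b, Snora70, Snora17, Snord87, Snord100, and, lower, Snord1a (−0.27 ± 0.052, adjusted p = 0.0187). Snord61 and Snora81 are named here after their values were seen.

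For H3K4me3 the log2 fold change was negative at 55 of 64 snoRNA genes, with a median of −0.079, where 57.4% of all 9315 genes were positive (median 0.013). The libraries of a genotype differed by more than this. Over 1 to 5 kb, NGS-6287 was the highest of the 3 F/F libraries at 53 of 58 snoRNA genes (median 6.51 RPKM against 2.61 and 3.05), and NGS-6291 the highest of the 3 FC/FC libraries at 47 of 58 (5.40 against 2.22 and 3.94). The median turned to 0.081 without NGS-6287 and to 0.076 without NGS-6283. No snoRNA gene had FC/FC libraries all above, and 1 had them all below (3.4% and 3.9% of all genes). This was Snord104, at 56.8, 55.4, and 58.4 RPKM in F/F libraries and 55.2, 53.8, and 54.0 in FC/FC cells. Snord123 in Snhg18 had 1.80, 1.86, and 1.48 RPKM in F/F libraries and 1.59, 1.41, and 1.39 in FC/FC cells (−0.21 ± 0.094, adjusted p = 0.991 in limma). Snord1a had −0.45 ± 0.23, Snord110 in Nop56 −0.22 ± 0.15, Snord1c −0.14 ± 0.10, and Snord42b −0.098 ± 0.078. Snord68 in Rpl13 (0.11 ± 0.11) and Snord16a in Rpl4 (0.23 ± 0.29) had the smallest p among the positive values, followed by Snord55 (0.063 ± 0.12), Snord58b (0.040 ± 0.099), and Snora26 (0.013 ± 0.061). At Snord49a, the highest gene, H3K4me3 was 85.3, 98.8, and 94.9 RPKM in F/F libraries and 79.2, 91.0, and 91.2 in FC/FC cells, and these ranges overlap.

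**Figure D5:**
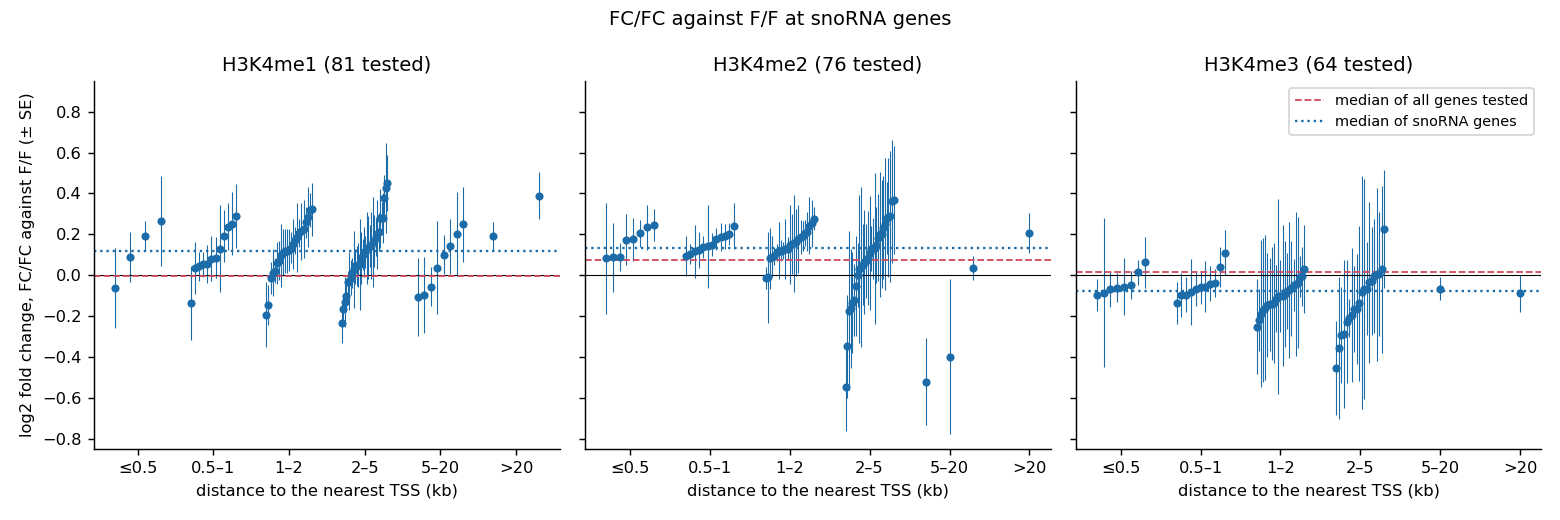
Log2 fold change (FC/FC against F/F, ± SE) of each snoRNA gene tested, by bin of distance to the nearest TSS (kb) and sorted by value within a bin, for the 3 marks. The blue dotted line is the median of the snoRNA genes (0.12, 0.13, and −0.079) and the red dashed line that of all genes tested (−0.0028, 0.075, and 0.013), and no snoRNA gene passes an adjusted p of 0.05 without a block.

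Genes of proteins and RNAs that work with snoRNAs were compared in the same way. None of the tested genes of the core proteins of box C/D particles (4 in the tables, among them Nop56, Nop58, and the methyltransferase Fbl) or of box H/ACA particles (4, among them Nhp2, Nop10, and Gar1) passed for any mark in limma. The same held for the tested genes among 13 assembly factors (5 tested for H3K4me1, 11 for H3K4me2, and 12 for H3K4me3). It also held among 16 host RNAs (Gas5 and Snhg genes), of which 14 were tested for each mark. Among 12 other small RNA genes (Scarna genes, Terc, Rmrp, and Rpph1), 6 were tested for each mark and 0 passed. All 14 host RNAs tested had a positive log2 fold change of H3K4me2 (median 0.14), 12 of 14 of H3K4me1 (median 0.14), and 2 of 14 of H3K4me3 (median −0.079). Over all genes tested, 74.8%, 49%, and 57.4% were positive in the same order. Some of these host RNAs hold snoRNA genes described above and share reads with them. Nop10 had the smallest p of the box H/ACA proteins for H3K4me1, at 2.11 ± 0.0731 RPKM in F/F libraries and 2.51 ± 0.0626 in FC/FC cells (0.24 ± 0.050, adjusted p = 0.0858 in limma). Snhg10 had 1.5 ± 0.0766 and 1.82 ± 0.0447 (0.27 ± 0.055, adjusted p = 0.0852 in limma). For the cell type, H3K4me3 passed the filter at 9 of 10 fibroblast genes and at none of 5 haematopoietic, 4 epithelial, 4 endothelial, and 4 neural genes. H3K4me1 passed at 7 of the fibroblast genes and at 1, 1, 2, and 2 of the other lists in the same order, and H3K4me2 passed at 10 and at 1 of each. The epithelial gene Cdh1 was lower in FC/FC cells in H3K4me2 (1.19 ± 0.0793 and 0.818 ± 0.0676 RPKM, log2 fold change −0.49 ± 0.072, adjusted p = 0.0354 in limma). The part of cell type in the results was not tested. The deposited values span whole transcripts and cannot show the loss of MLL2 exons.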

How the data were processed

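Mouse cells (immortalized MEFs) were analysed in 18 ChIP-seq libraries of H3K4me1, H3K4me2, and H3K4me3. The other samples of the series were not analysed here. Per the labels, the authors called bases with CASAVA 1.4 and aligned reads with BWA 0.7.10 to mm10. The authors deposited RPKM of reads extended to 200 bp over UCSC refGene transcripts widened by 500 bp on both sides, not normalized to H3, which divide by the reads summed over the listed transcripts. Multiplied back, 100% of values were whole reads within 0.01 read, so limma-voom could be run on them. They also deposited peak lists from MACS 1.4.2, called against a library of histone H3, with a score that grows as the p-value falls. The study left out peaks in blacklisted regions in its own work, but whether the deposited lists precede that step is not given in the sources used here, and flag columns of the authors' own analyses were not used.

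One row was kept per symbol (the longest, or the transcript the study lists). The pseudocount was 0.1 RPKM, and genes over 1 RPKM in 3 or more of a mark's 6 libraries were tested by limma 3.58.1 (R 4.3.3) with a mean-variance trend, and Benjamini-Hochberg adjusted p-values over all genes tested. The test was checked on simulated libraries with independent noise at each gene. They held no deviation shared by many genes of a library, so this check does not cover such deviations. Fold changes on the log2(RPKM + 0.1) scale understate changes of low genes. A window had a peak if it overlapped one by at least 1 bp. Sequences are from RefSeq GRCm38.p6. Genes named were chosen among the 5 smallest p in each direction and the 5 highest and 3 lowest F/F levels per mark, the nearest and farthest gene of each bin, long-known snoRNAs, and all genes of hosts with at least 3. Genes whose levels went against their distance, or that a peak count of 1 singles out, were named after their values were seen. The snoRNA genes, lists, and alternatives were chosen with earlier results of these data known. Other steps used Python 3.11.15, pandas 2.3.3, scipy 1.17.1, and matplotlib 3.10.9. Alternatives were other pseudocounts (0.01 and 1), no filter, centring, quantile normalization, the shortest transcript, no trend, a single fit of 18 libraries, limma-voom, leaving out transcripts under 250 bp other than snoRNA genes, stricter or equal numbers of peaks, other overlaps and distances, and leaving out each library. A block on sets of library numbers was added after seeing the data.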

Additional observations from a re-analysis of the deposited data

How the results depend on the processing

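The number of snoRNA genes called stayed at 0 in each direction for H3K4me3 under every alternative, including limma-voom, and for H3K4me1 under every alternative but the replicate block of library numbers, an alternative added after seeing the data, with 8 higher (Snord72, Snord95, Snord100, and Snord90 among them). The sets of this block come from the library numbers, and no label says that they are the study's independent experiments. Over all genes, too, 0 were called for these 2 marks, except with the block, the single fit of 18 libraries, and, for H3K4me1, limma-voom. The single fit called 115 of 9047 genes higher and 135 lower for H3K4me1. For H3K4me3 it called 6 of 9315 higher and 20 lower. The block changed no call of H3K4me2 or H3K4me3 at snoRNA genes. For H3K4me2 the number called was 1 higher with no filter (Snord11, at 0.0785 and 0.145 RPKM, with 0.239% of all genes called higher), ran from 0 to 11 higher and 0 to 1 lower when a library was left out (11 and 1 without NGS-6282), and was 0 otherwise. The median log2 fold change ran from 0.086 to 0.14 for H3K4me1, from 0.078 to 0.24 for H3K4me2, and from −0.23 to 0.081 for H3K4me3 when a library was left out. Of single genes, Snora26 turned to −0.00080 for H3K4me3 with centred libraries. When a library was left out, among the genes named by their p, ranges that crossed 0 were −0.63 to 0.060 (Snora2b) and −0.25 to 0.038 (Snord83b) for H3K4me2, and −0.012 to 0.20 (Snord68), −0.000665 to 0.50 (Snord16a), −0.062 to 0.16 (Snord55), −0.061 to 0.096 (Snord58b), and −0.016 to 0.050 (Snora26) for H3K4me3.

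With distance from the midpoint of the gene, F/F medians were 1.46 RPKM (H3K4me1, 500 to 1000 bp), 3.75 (H3K4me1, 1 to 2 kb), and 15.1 (H3K4me2, within 500 bp). With 1 gene per stretch of overlapping windows, H3K4me1 was 1.96 at 500 to 1000 bp, and rho for H3K4me3 was −0.828. With TSSs of transcripts of at least 250 bp, rho was −0.884. The order of the bins did not change under these alternatives. The mean number of windows with a peak over the 3 libraries of a group stayed within 1.5 times under stricter peaks and overlaps. Single libraries moved more, as in NGS-6285 (H3K4me1, F/F), with 64 windows and 41 at a peak score of at least 100. Genes under 1 RPKM, which is 28.8 to 53.8 reads in the median window, were left out of the test by the filter on low values.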
